A study of Mus musculus with 6 samples.

Results

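The genes described here are 36 named genes of the Sertoli cell, the somatic cell of the seminiferous tubule, chosen for their known roles in Sertoli cell identity, secretion and the blood-testis barrier, out of 55536 genes in the count table. The rule names genes and uses no measured value, but the list was drawn up with earlier results of these data known. Whole testes were sequenced from WT mice of the FVB/NJ strain, from P2KO mice, which are Padi2 single KO, and from DKO mice, which are Padi2/Padi4 double KO, with 2 adult males of 4 months per genotype and 1 library per male. All 3 lines share the FVB/NJ background and were kept as inbred homozygous lines. P2KO and DKO mice both carry a gene trap that replaces part of the first exon of Padi2 with LacZ and neomycin sequence, and DKO mice carry in addition a small frameshift deletion in Padi4 and descend from 1 edited founder. Padi2 and Padi4 encode peptidylarginine deiminases, enzymes that turn arginine residues of proteins into citrulline, and the comparisons ask whether their loss goes with a change in the somatic support of spermatogenesis.

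Sertoli cells line the tubule from its base to its lumen and carry the germ cells through their development. Their fate is set by transcription factors of the SOX, GATA and DMRT families and by WT1. They take instructions from follicle-stimulating hormone and testosterone, return inhibin to the pituitary, send growth factors to spermatogonia and Leydig cells, and secrete transport proteins and protease inhibitors into the tubule fluid. Neighbouring Sertoli cells are sealed to each other by tight, gap and adherens junctions that are backed by bundled actin, and this barrier separates meiotic and postmeiotic germ cells from blood and lymph.

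The promoters of Fshr and Amhr2, the receptors for follicle-stimulating hormone and for anti-Müllerian hormone, are shown because a motif well known in Sertoli cell transcription stands in each. RefSeq start sites in GRCm38.p6 gave a promoter window of 250 bases before to 50 bases after the start for 26 of the 36 genes, and no window was held for Sox9, Wt1, Gata4, Dmrt1, Amh, Clu, Trf, Aard, Mro and Cdh2. The 250 bases before the start are printed on the strand of the gene. Capitals mark the E-box CACGTG, which reads the same on both strands, in Fshr (minus strand, chr17:89200676-89200925) and the half-site AAGGTCA of the nuclear receptor SF-1 in Amhr2 (plus strand, chr15:102445117-102445366).
Fshr: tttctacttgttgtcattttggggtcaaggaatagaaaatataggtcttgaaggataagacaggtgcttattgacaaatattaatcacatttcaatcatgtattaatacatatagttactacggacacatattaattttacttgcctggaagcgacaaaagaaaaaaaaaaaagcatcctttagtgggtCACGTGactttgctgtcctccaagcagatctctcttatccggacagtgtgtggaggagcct
Amhr2: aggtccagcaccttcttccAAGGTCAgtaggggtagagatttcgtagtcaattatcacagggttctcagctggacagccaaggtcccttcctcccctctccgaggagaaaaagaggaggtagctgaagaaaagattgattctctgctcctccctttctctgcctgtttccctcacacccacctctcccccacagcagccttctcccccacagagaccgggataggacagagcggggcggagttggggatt
The E-box of Fshr begins 61 bases before the start, and the half-site of Amhr2 begins 231 bases before it. The E-box stood in the windows of 3 of the 26 genes (Fshr, Ctsl and Sox8) and in 7.15% of all 32851 promoter windows. The half-site, searched on both strands, stood in 1 of the 26 (Amhr2) and in 4.72% of all windows. The windows differ in base composition, with 36.8% G and C for Fshr and 55.2% for Amhr2. A match of these letters is a description of the window and no evidence of binding.

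Each library held between 21939393 and 27306679 counts, and the factors of the TMM scaling from 0.984 to 1.02. The 36 genes together took between 0.188% and 0.216% of the counts, the lowest share in a DKO library and the highest in a P2KO library. A gene was called when its adjusted p in edgeR's quasi-likelihood test was under 0.05. Counts on Padi2 were 47 and 64 in WT, 100 and 55 in the libraries labelled P2KO, and 59 and 83 in those labelled DKO, and were not called lower (log2 fold change 0.40 and 0.35 against WT). The table gives no position within the gene, and whether these reads fall outside the trapped exon was not tested, so Padi2 does not check the labels. Padi4 had 20 and 43 counts in WT, 11 and 10 in P2KO, and 4 and 4 in DKO, and was called lower in DKO against WT (adjusted p = 0.000278) but not in P2KO against WT (adjusted p = 0.0959). Of the 36 genes, 33 passed the filter on low counts and were tested. The other 3 were Inhba, Krt18 and Trf, with at most 13, 10 and 3 counts in any library.

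The tissue label was checked on 10 defining Sertoli markers, all of them among the 36 genes, and all 10 had more than 3 counts in every library. Their summed level in CPM (counts scaled to library size) was 335.4 and 303.6 in WT, 329.6 and 348.4 in P2KO, and 301.9 and 289.6 in DKO, so that both DKO libraries lay below the other 4. Aard alone made up between 30.1% and 35.3% of that sum. Without Aard the sum was 216.9 and 208.5 in WT, 214.3 and 231.9 in P2KO, and 211.0 and 200.3 in DKO, and the DKO and WT libraries overlapped. In whole testis RNA, fewer Sertoli cells and less RNA per Sertoli cell cannot be told apart.

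Other cell types also varied between libraries. The summed level of 8 spermatid markers was 14520 and 15020 CPM in WT, 12440 and 13620 in P2KO, and 13320 and 13260 in DKO, and both WT libraries were the highest. The 4 genes of protamines and transition proteins (Prm1, Prm2, Tnp1 and Tnp2) made up the larger part of that sum. Of the 8 markers, Tnp2 was called lower in P2KO against WT (adjusted p = 0.000762), Prm1 (0.0302) and Tnp1 (0.0130) were called lower in DKO against WT, and Spaca1 was called lower in DKO against P2KO (0.0402), beside 0.14%, 1.16% and 0.598% of all tested genes called lower. Acrv1 had a log2 fold change above 0 in both knockouts against WT (0.14 and 0.051) and was not called. The summed level of 7 Leydig cell markers was 696.1 and 681.5 in WT, 791.6 and 709.7 in P2KO, and 889.7 and 730.8 in DKO, and both WT libraries were the lowest. Cyp17a1 was the largest part of that sum in every library, and the list did not move one way. In DKO against WT, 3 of the 7 were called higher (Star, Cyp11a1 and Cyp17a1) and Hsd3b1 was called lower (log2 fold change -0.46, adjusted p = 0.000273), beside 2.06% of all tested genes called higher and 1.16% called lower. The median deviation of the 7 markers from their mean over the 6 libraries, on the log2 scale, was -0.094 and 0.049 in WT and 0.21 and -0.066 in DKO, so by this measure the genotypes overlapped. Sums over 8 spermatocyte markers stayed between 1878 and 1941 CPM. Sums over 8 spermatogonial markers ran from 93.72 to 103.4, over 5 peritubular myoid markers from 54.04 to 71.01, over 5 endothelial markers from 26.07 to 30.59 and over 5 macrophage markers from 46.16 to 57.12. Vwf had the most counts of the endothelial list in every library. For Pecam1, Cdh5, Kdr and Tek, but not Vwf, both DKO libraries lay above both WT libraries, beside 21.6% of all tested genes. None of the 5 was called in DKO against WT. The median deviation of the endothelial markers was -0.12 and -0.0945 in WT, 0.061 and -0.012 in P2KO, and 0.17 and 0.42 in DKO. Markers of the epididymis summed to at most 0.4905 CPM, and 3 of the 5 had at most 3 counts in every library. The part of these shifts in the values of the Sertoli genes was not tested.

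**Figure D1:**
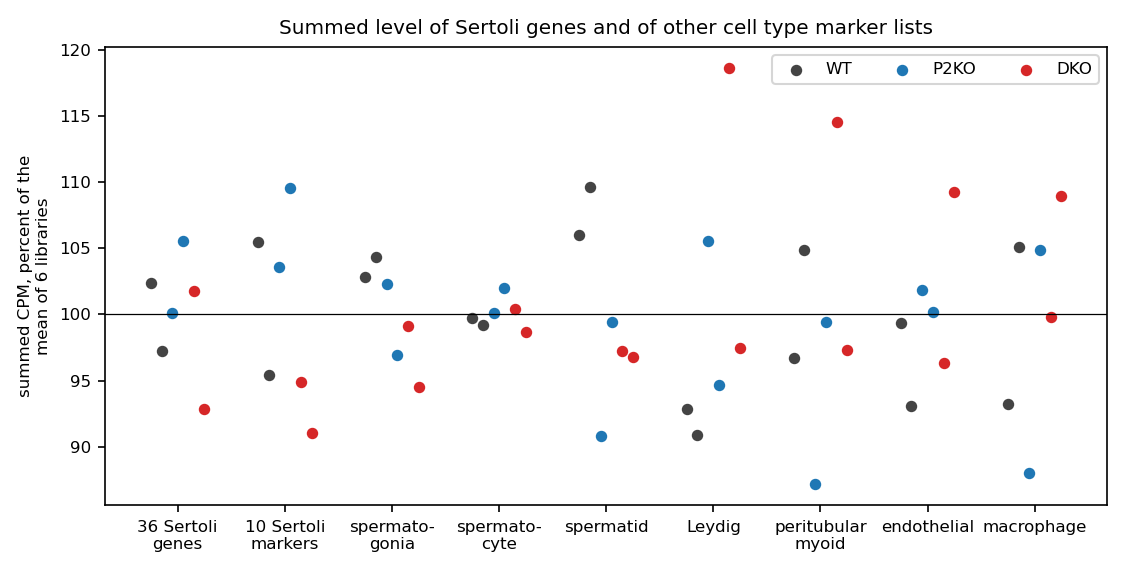
Summed level of the 36 Sertoli genes, of 10 defining Sertoli markers and of 7 lists of markers for other testis cell types, each point 1 library coloured by genotype. The vertical axis gives the summed CPM as a percent of the mean of the 6 libraries and does not start at 0. The 2 DKO libraries are the lowest for the 10 Sertoli markers, and the 2 WT libraries are the highest for spermatid markers and the lowest for Leydig markers.

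Levels between genes are compared per length, as RPKM (reads scaled to exon length in kilobases and to library size). Some exon bases of Sox8, Dhh, Trf, Ctsl and Nectin2 overlap another gene and are part of that length. Where reads on such bases were not counted, RPKM understates these genes. Clu, the secreted chaperone clusterin, was the highest at 204.5 RPKM in WT, and it alone supplied between 33.1% and 34.6% of all counts on the 36 genes. It was followed by Amhr2 at 85.65, Aard at 79.25, Cst12 at 51.18 and Inha at 47.96 RPKM in WT. In all, 13 genes averaged 10 RPKM or more over the 6 libraries, 17 lay between 1 and 10, and 6 lay below 1 (Amh, Fshr, Gdnf, Krt18, Inhba and Trf). Fshr stood at 0.74 and Gdnf at 0.27 RPKM in WT, far below the secreted product Clu and below the other receptor, Amhr2.

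**Figure D2:**
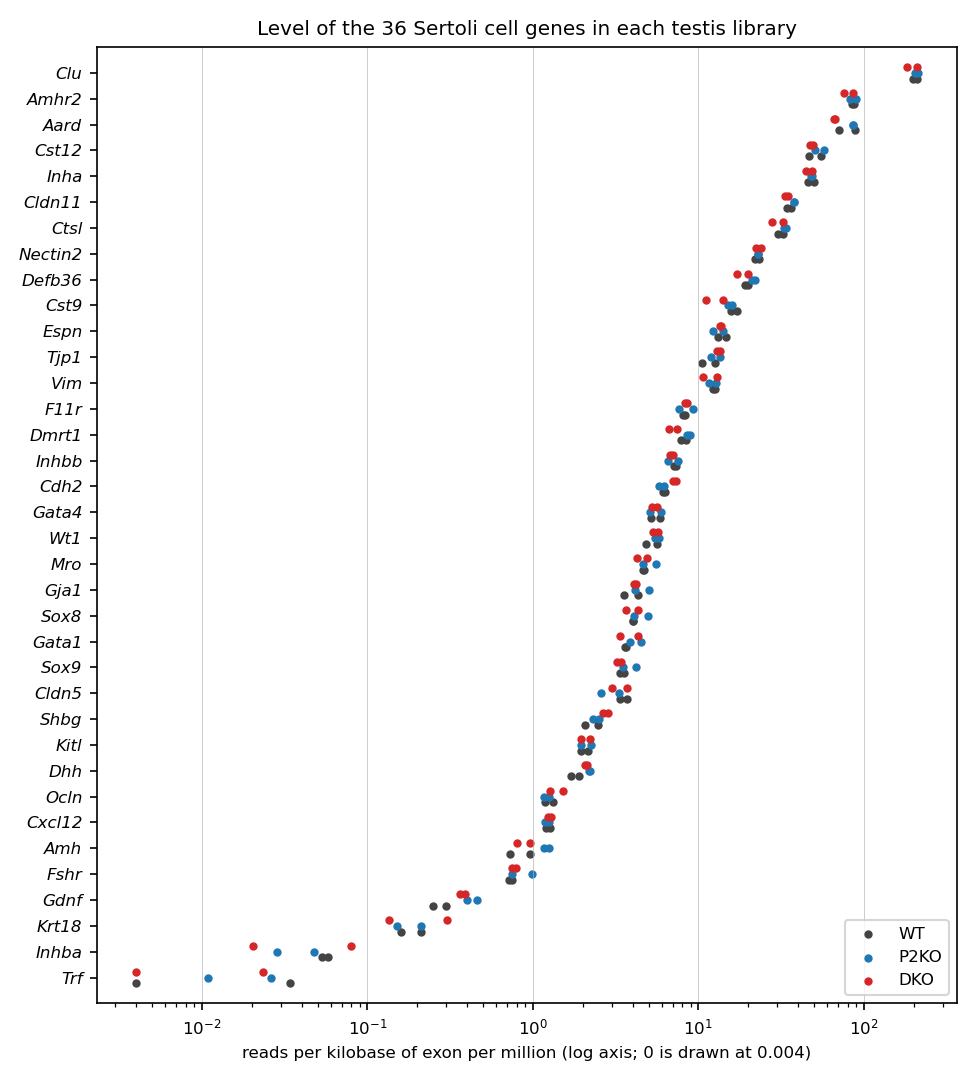
Level of each of the 36 Sertoli genes in RPKM on a log axis, each point 1 library coloured by genotype, with genes ordered by their mean. Clu stands at the top near 204.5 RPKM and Trf at the bottom, and the 3 genotypes lie close together for nearly every gene compared with the distance between genes.

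Of the 33 tested genes, 1 was called in any of the 3 comparisons. In P2KO against WT none was called, beside 0.198% of all 20744 tested genes called higher and 0.14% called lower, and 3 had an unadjusted p under 0.05. In DKO against WT none was called, beside 2.06% of all genes called higher and 1.16% called lower (428 and 240 genes, which became 367 and 322 under upper-quartile scaling, 129 and 121 without the second DKO library and 762 and 303 without the first WT library), and 5 had an unadjusted p under 0.05. In DKO against P2KO 1 was called, Aard, which was lower, beside 0.607% of all genes called higher and 0.598% called lower, and 6 had an unadjusted p under 0.05. Across all tested genes, 8.57%, 14.1% and 11.8% had an unadjusted p under 0.05 in the 3 comparisons, against 9.09%, 15.2% and 18.2% of the Sertoli genes. DESeq2 on all 6 libraries called the same number of Sertoli genes in each comparison.

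The direction of the small differences was not the same in the 3 comparisons. In P2KO against WT the fitted fold change was above 1 for 25 of the 33 genes and their median log2 fold change was 0.081, against 0.0035 over all tested genes. Both P2KO libraries lay above both WT libraries for 9 genes (Sox8, Gata1, Dmrt1, Amh, Dhh, Gdnf, Ctsl, Defb36 and Cldn11) and below them for 1 (Cldn5), beside 18.7% and 18.8% of all genes. In DKO against WT it was above 1 for 15 genes, with a median of -0.014 against -0.0048. There both DKO libraries lay above both WT libraries for 6 genes (Shbg, Dhh, Gdnf, Tjp1, Cdh2 and F11r) and below them for 4 (Dmrt1, Inhbb, Cst9 and Aard), beside 21.6% of all genes in each direction.

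In DKO against P2KO the fold change was above 1 for 10 genes, with a median log2 fold change of -0.083 against -0.0028 over all genes. The DKO libraries lay below both P2KO libraries for 11 genes (Sox9, Dmrt1, Amh, Dhh, Gdnf, Ctsl, Cst9, Cst12, Defb36, Aard and Cldn11) and above them for 3 (Shbg, Ocln and Cdh2), beside 21.6% and 21.1% of all genes. The 3 comparisons share libraries, so these counts are not independent of each other. The median of the Sertoli genes varied between the libraries of 1 genotype with an SD of 0.070 on the log2 scale, which is close to the size of these medians. It was led by 2 libraries, with the second P2KO library 0.099 above and the second DKO library 0.076 below the mean of the 6 libraries. Without the second DKO library the median of DKO against P2KO was 0.0079, and without the second P2KO library it was -0.016. The median of P2KO against WT was 0.018 without the second P2KO library and 0.017 without the second WT library.

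**Figure D3:**
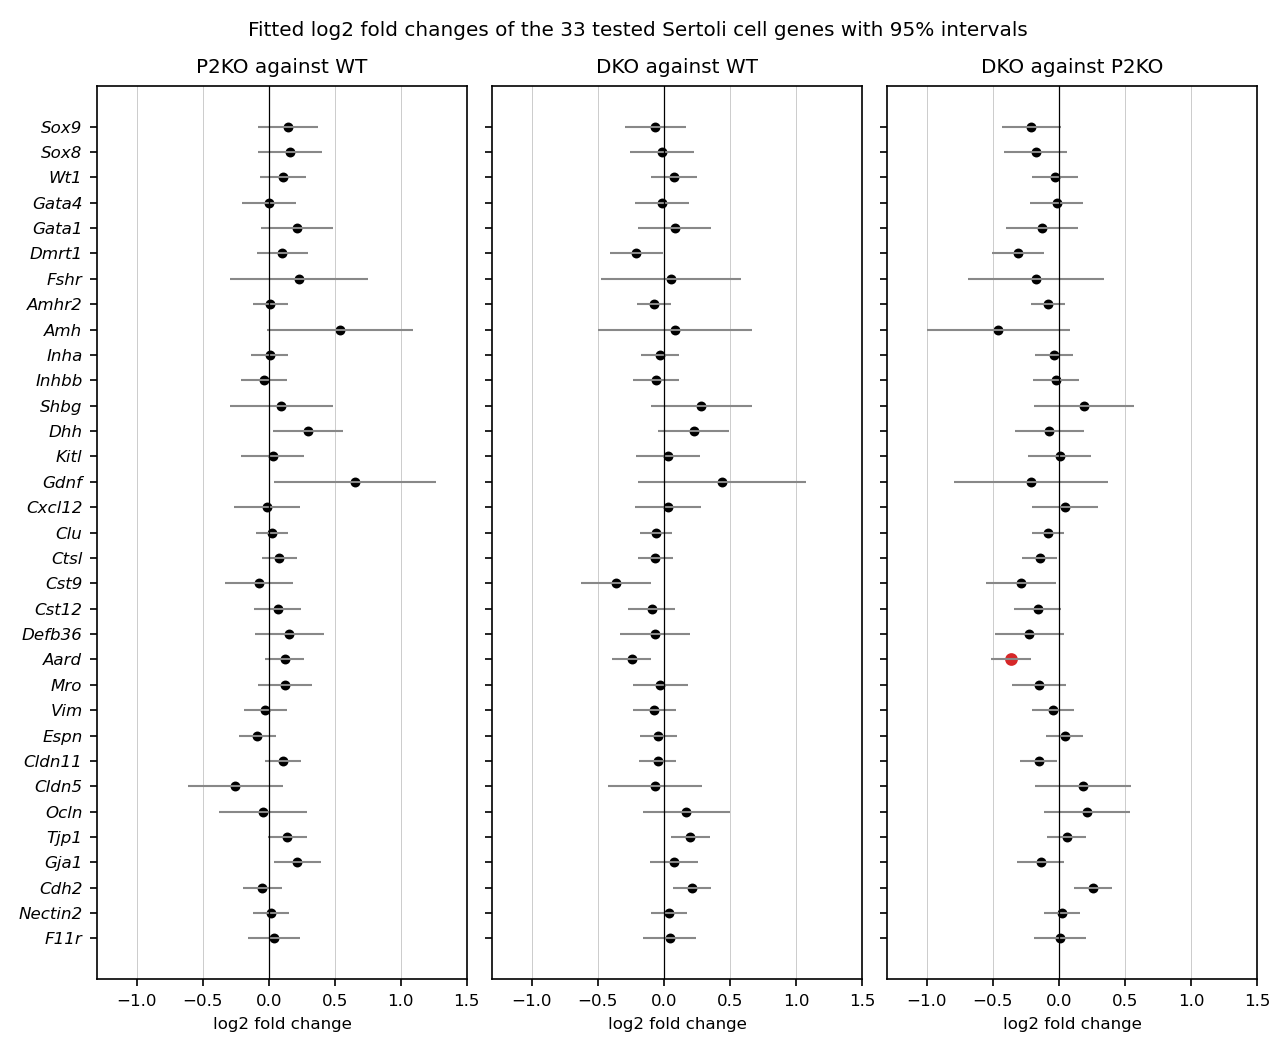
Fitted log2 fold changes of the 33 tested Sertoli genes (points) with 95% intervals (lines) in the 3 comparisons, with genes grouped by role from transcription factors at the top to junction genes at the bottom. The called gene, Aard in DKO against P2KO, is drawn in red, and the widest intervals belong to Gdnf, Amh and Fshr.

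The fits also give a 95% interval for each fold change. Its width uses a spread partly borrowed from other genes, so it is not a bound from the 2 mice per genotype alone. For Aard in DKO against WT it ran from -0.393 to -0.094 on the log2 scale. Leaving out 1 WT library moved the log2 fold change of Aard to -0.084 or -0.40. The 95% interval of the fold change lay within 1.5-fold in either direction for 29 of the 33 genes in P2KO against WT, 28 in DKO against WT and 30 in DKO against P2KO. It lay within 2-fold for 31, 32 and 32 genes. The genes whose interval reached beyond 2-fold were Amh and Gdnf in P2KO against WT, Gdnf in DKO against WT and Amh in DKO against P2KO, both of them genes with few counts. With these counts and 2 mice per genotype, the size of any change in them was poorly bounded.

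Aard encodes an alanine- and arginine-rich protein whose transcript is a marker of the Sertoli cell, and lies on chromosome 15 from 52040107 to 52045722 (GRCm38, plus strand), with no exon shared with another gene. Its normalized count, a count scaled to the common library size, was 2908 and 2335 in WT, 2829 and 2858 in P2KO, and 2230 and 2190 in DKO. Both DKO libraries were the lowest of the 6, the P2KO libraries were almost equal, and the WT libraries stood far apart, one near P2KO and the other near DKO. In DKO against P2KO the log2 fold change was -0.36 ± 0.073 (SE, n = 2 per genotype) and Aard was called (edgeR, adjusted p = 0.00391), which is 0.777 of the P2KO level.

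In DKO against WT Aard had a log2 fold change of -0.24 ± 0.074 and was not called (adjusted p = 0.0616). That value rests on WT: without the first WT library it was -0.084 (adjusted p = 0.667), and without the second it was -0.40 (adjusted p = 1.59e-05). In P2KO against WT the log2 fold change of Aard was 0.12 ± 0.073 (adjusted p = 0.697). The call in DKO against P2KO was lost when the second P2KO library (adjusted p = 0.0664), the first DKO library (0.0787) or the second DKO library (0.132) was left out, with log2 fold changes of -0.35, -0.38 and -0.35. Mro, which encodes maestro, a nuclear protein of the male gonad, had normalized counts of 508.1 and 506.4 in WT, 506.5 and 602.6 in P2KO and 531.6 and 463.3 in DKO, and its groups overlapped in every comparison.

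**Figure D4:**
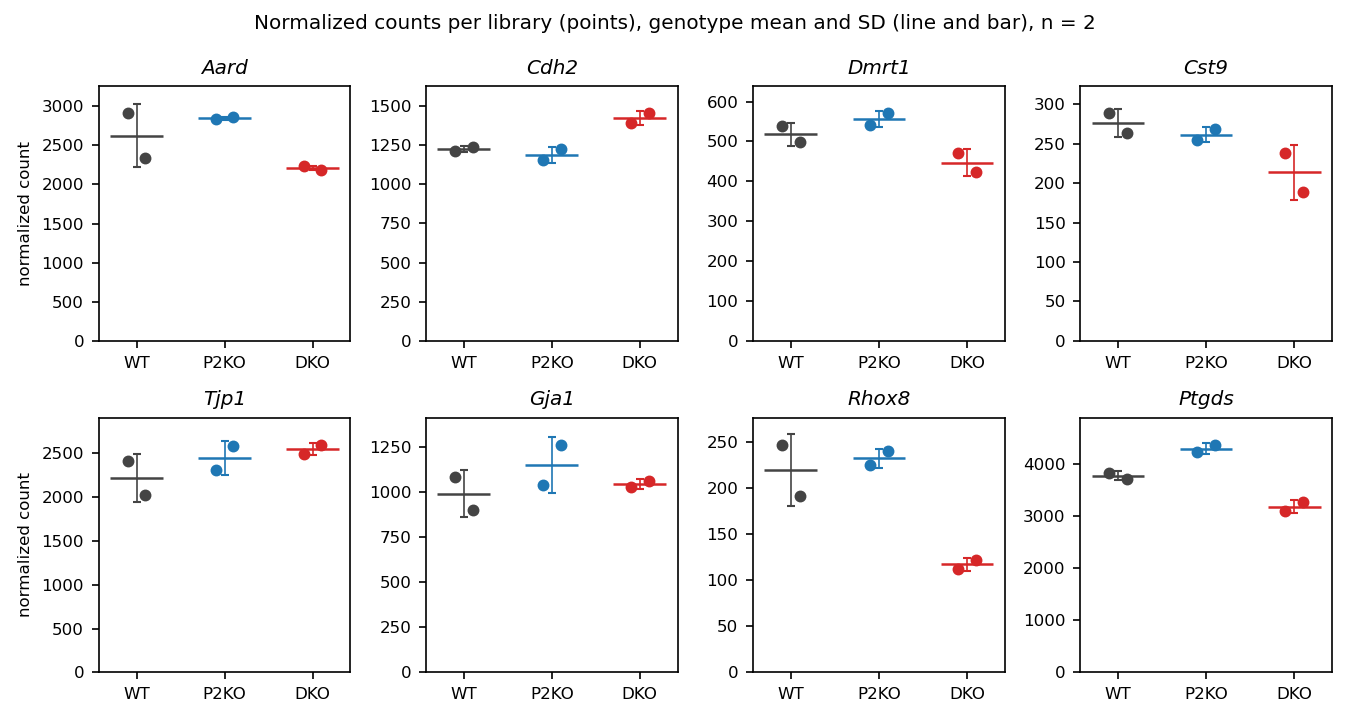
Normalized counts of 6 Sertoli genes and of the partner genes Rhox8 and Ptgds in each library (points), with the mean and SD of each genotype (line and bar, n = 2), on axes that start at 0. Both DKO libraries are the lowest of the 6 for Aard, Dmrt1, Cst9, Rhox8 and Ptgds and the highest for Cdh2, and the WT libraries stand apart from each other for Aard and Tjp1.

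None of the 6 identity factors was called, beside between 0.14% and 2.06% of all tested genes in each direction of the comparisons. Sox9, the factor that sets Sertoli cell fate, had normalized counts of 362.7 and 342.5 in WT, 356.6 and 424.8 in P2KO and 326.6 and 347.7 in DKO, so that only the second P2KO library stood out. Its log2 fold change was 0.14 ± 0.11 in P2KO against WT (adjusted p = 0.785), -0.064 ± 0.11 in DKO against WT (adjusted p = 0.875) and -0.21 ± 0.11 in DKO against P2KO (adjusted p = 0.472). Its relative Sox8 had 308.7 and 306.4 in WT, 312.2 and 379.0 in P2KO and 328.6 and 279.9 in DKO, and the ratio of Sox9 to Sox8 per length was 0.865 ± 0.031 in WT, 0.853 ± 0.011 in P2KO and 0.843 ± 0.13 in DKO (mean ± SD, n = 2). Of the exon bases of Sox8, 329 overlap 2810468N07Rik on the other strand. Whether the counts used strand, and so how reads there were counted, is not known.

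Dmrt1, which guards the male fate of the adult Sertoli cell and is also expressed in spermatogonia, was the identity factor with the smallest p. Its normalized counts were 538.5 and 498.0 in WT, 541.9 and 570.6 in P2KO, and 471.3 and 423.0 in DKO, and both DKO libraries lay below the other 4. Its log2 fold change was -0.31 ± 0.097 in DKO against P2KO (adjusted p = 0.118) and -0.21 ± 0.098 in DKO against WT (adjusted p = 0.319). The summed level of 8 spermatogonial markers was 98.22 and 93.72 CPM in the same DKO libraries, against 101.9 and 103.4 in WT and 101.4 and 96.1 in P2KO. Id4 and Uchl1 had the most counts of that list in every library, and the list did not move one way. In DKO against WT the log2 fold changes of Id4, Uchl1 and Stra8 were -0.10, -0.14 and -0.14. Those of Zbtb16, Sall4, Nanos3 and Gfra1 were 0.087, 0.14, 0.16 and 0.022, and Nanos2 was not tested. Without the second WT library, Dmrt1 was called in DKO against P2KO along with Aard and Cdh2.

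Wt1, a zinc-finger factor needed to keep Sertoli cells and their polarity, had normalized counts of 853.9 and 737.8 in WT, 836.4 and 876.1 in P2KO and 872.6 and 803.6 in DKO. Gata4, which acts with SF-1 on Sertoli promoters and is shared with Leydig cells, had 565.5 and 492.5 in WT, 487.0 and 572.7 in P2KO and 538.3 and 505.7 in DKO. Gata1, which Sertoli cells express in a stage-dependent way, had 217.4 and 215.7 in WT, 268.8 and 231.0 in P2KO and 256.7 and 200.4 in DKO. The genotypes overlapped for these 3 factors, except for Gata1 in P2KO against WT. All 6 identity factors had a fold change above 1 in P2KO against WT and below 1 in DKO against P2KO, with log2 medians of 0.13 and -0.15. These medians were led by the second P2KO and the second DKO library. The median deviation of the 6 factors from their mean over the 6 libraries, on the log2 scale, was 0.029 and -0.081 in WT, 0.0020 and 0.15 in P2KO, and 0.041 and -0.12 in DKO, so the first P2KO and the first DKO library lay near the first WT library.

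The hormone receptors and hormones were likewise not called. Fshr, the receptor for follicle-stimulating hormone whose promoter is printed above, had normalized counts of 41.68 and 43.51 in WT, 43.46 and 57.49 in P2KO, and 43.10 and 45.59 in DKO. The 6 values overlapped apart from the second P2KO library, and the log2 fold changes were 0.23 ± 0.26 in P2KO against WT (adjusted p = 0.867), 0.055 ± 0.26 in DKO against WT (adjusted p = 0.962) and -0.18 ± 0.25 in DKO against P2KO (adjusted p = 0.860). Amhr2, the receptor for anti-Müllerian hormone, which Leydig cells express too, was much higher at 4266 and 4161 in WT, 4082 and 4417 in P2KO, and 4252 and 3756 in DKO. The factor SF-1, encoded by Nr5a1, had normalized counts of 910.2 and 840.5 in WT, 928.7 and 901.7 in P2KO and 918.6 and 869.3 in DKO.

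Amh, the anti-Müllerian hormone that marks the immature Sertoli cell and is low in the adult, had normalized counts of 39.43 and 29.62 in WT, 51.44 and 47.91 in P2KO, and 39.27 and 32.87 in DKO. Both P2KO libraries lay above the other 4. Its log2 fold change was 0.54 ± 0.27 in P2KO against WT (adjusted p = 0.589), 0.082 ± 0.29 in DKO against WT (adjusted p = 0.949) and -0.46 ± 0.27 in DKO against P2KO (adjusted p = 0.522), with 95% intervals from -0.010 to 1.09 and from -1.002 to 0.084 in the first and the last. Per length the receptor Amhr2 exceeded the hormone 104-fold in WT (SD 19, n = 2), 71.4-fold in P2KO (SD 7.57) and 92.7-fold in DKO (SD 3.55).

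Inha, the alpha subunit common to the inhibins, had normalized counts of 1804 and 1668 in WT, 1760 and 1728 in P2KO, and 1767 and 1631 in DKO. Its log2 fold change was 0.0081 ± 0.069 in P2KO against WT, -0.029 ± 0.069 in DKO against WT and -0.037 ± 0.069 in DKO against P2KO. Inhbb, the beta B subunit that pairs with it in testicular inhibin B, had 760.4 and 745.2 in WT, 686.5 and 782.5 in P2KO, and 736.6 and 705.0 in DKO. The log2 fold change of Inhbb was -0.038 ± 0.086, -0.062 ± 0.086 and -0.024 ± 0.086 in the same order, and the adjusted p of both subunits was at least 0.828 in every comparison.

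Per length Inha exceeded Inhbb by 6.65 ± 0.27 in WT, 6.88 ± 0.72 in P2KO and 6.80 ± 0.18 in DKO (mean ± SD, n = 2). The ratio of the subunits of inhibin B thus differed between genotypes by less than the spread of the libraries. Inhba, the beta A subunit, was not tested and had 8 and 9 counts in WT, 5 and 7 in P2KO, and 13 and 3 in DKO. Shbg, which encodes the androgen-binding protein of the tubule fluid, had normalized counts of 91.25 and 75.91 in WT, 85.15 and 92.62 in P2KO, and 97.70 and 105.0 in DKO. Both DKO libraries were the highest, with a log2 fold change of 0.28 ± 0.19 in DKO against WT (adjusted p = 0.554).

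Among the paracrine ligands, Dhh and Gdnf were lowest in both WT libraries. Dhh, desert hedgehog, the Sertoli signal to Leydig and peritubular cells, had normalized counts of 206.2 and 182.4 in WT, 236.8 and 239.5 in P2KO, and 228.9 and 223.7 in DKO. Against WT the log2 fold change of Dhh was 0.30 ± 0.13 in P2KO (adjusted p = 0.518) and 0.23 ± 0.13 in DKO (adjusted p = 0.478). Part of its exon sequence is shared with Rhebl1 on the same strand, so reads there cannot be assigned to 1 gene. Gm49442 overlaps it on the other strand. Rhebl1 itself had between 46 and 75 counts per library.

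Gdnf, the growth factor that keeps spermatogonial stem cells, had normalized counts of 22.53 and 26.85 in WT, 41.69 and 36.20 in P2KO, and 32.57 and 34.99 in DKO. The 4 knockout libraries all lay above WT, and the P2KO libraries above DKO. The log2 fold change of Gdnf was 0.65 ± 0.30 in P2KO against WT (adjusted p = 0.549), 0.44 ± 0.31 in DKO against WT (adjusted p = 0.589) and -0.21 ± 0.29 in DKO against P2KO (adjusted p = 0.843). The interval in P2KO against WT ran from 0.036 to 1.27, so its size was poorly bounded at this depth.

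The other ligands of the niche did not separate by genotype. Kitl, the ligand of the KIT receptor on differentiating spermatogonia, had normalized counts of 312.0 and 282.3 in WT, 282.9 and 323.6 in P2KO and 320.9 and 285.2 in DKO. Cxcl12, a chemokine that holds spermatogonia in the niche, had 253.5 and 241.6 in WT, 237.7 and 252.3 in P2KO and 249.0 and 256.6 in DKO. The genotypes overlapped for both.

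Of the 6 genes of secretion and proteolysis, Cst9 had the smallest p in DKO against WT, and Ctsl had it in the other 2 comparisons. Cst9 encodes a cystatin, a family of inhibitors of cysteine proteases, and its normalized counts were 288.4 and 263.8 in WT, 254.6 and 268.3 in P2KO, and 238.5 and 188.7 in DKO. Both DKO libraries lay below the other 4, and the second DKO library was the lowest. The log2 fold change of Cst9 was -0.36 ± 0.13 in DKO against WT (adjusted p = 0.143), -0.29 ± 0.13 in DKO against P2KO (adjusted p = 0.369) and -0.078 ± 0.13 in P2KO against WT. Its neighbour on chromosome 2, Cst12, another cystatin, was about 3 times higher per length, with ratios of 3.14 ± 0.57 in WT, 3.47 ± 0.17 in P2KO and 3.84 ± 0.54 in DKO (mean ± SD, n = 2). The normalized counts of Cst12 were 753.6 and 891.5 in WT, 814.2 and 917.7 in P2KO, and 787.4 and 760.1 in DKO.

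Ctsl encodes cathepsin L, a cysteine protease that Sertoli cells secrete in a stage-dependent way. It had normalized counts of 4855 and 5184 in WT, 5377 and 5246 in P2KO, and 5157 and 4444 in DKO, and both DKO libraries lay below both P2KO libraries. In DKO against P2KO the log2 fold change was -0.15 ± 0.064 (adjusted p = 0.339). Its exons overlap Gm49230 on the same strand and Gm47123 on the other strand.

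Clu had normalized counts of 17730 and 16760 in WT, 17190 and 17910 in P2KO, and 17700 and 15450 in DKO, and the genotypes overlapped. Defb36, a defensin gene used as a Sertoli marker, had 228.7 and 218.5 in WT, 253.7 and 243.8 in P2KO, and 228.0 and 197.2 in DKO, with the P2KO libraries the highest. Trf, which encodes transferrin, the carrier of iron to germ cells, had at most 3 counts in any library. Of its 3320 exon bases, 2108 overlap Gm20425 on the same strand, which itself had at most 7 counts. All 5 tested genes of this group had a fold change below 1 in both comparisons of DKO, with log2 medians of -0.068 against WT and -0.16 against P2KO, and none was called. The second DKO library was the lowest of the 6 for Clu, Ctsl, Cst9 and Defb36, while in the first DKO library Clu, Ctsl and Defb36 lay above their WT means (17250, 5020 and 223.6).

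The cytoskeletal genes did not separate by genotype. Espn encodes espin, which bundles the actin of the ectoplasmic specialization, the Sertoli side of the junctions with spermatids and with other Sertoli cells. It lies on chromosome 4 (152120331 to 152152371, GRCm38), 11.2 Mb beyond Padi2 and on the same chromosome as Padi4. Its normalized counts were 2997 and 2682 in WT, 2482 and 2864 in P2KO, and 2770 and 2738 in DKO. The log2 fold change was -0.087 ± 0.069 in P2KO against WT (adjusted p = 0.796), -0.043 ± 0.069 in DKO against WT (adjusted p = 0.864) and 0.045 ± 0.069 in DKO against P2KO (adjusted p = 0.872). Vim, the intermediate filament vimentin that anchors the Sertoli nucleus and is also made by other somatic cells, had 1472 and 1418 in WT, 1345 and 1498 in P2KO, and 1502 and 1244 in DKO. Krt18, a keratin of immature Sertoli cells, had between 5 and 10 counts and was not tested.

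Among the 8 junction genes, the cadherin Cdh2 had the smallest p in both comparisons with DKO, followed in DKO against WT by the tight-junction scaffold Tjp1. Cdh2, N-cadherin of the basal adherens junctions, had normalized counts of 1211 and 1240 in WT, 1152 and 1222 in P2KO, and 1389 and 1452 in DKO, and both DKO libraries lay above the other 4. Cdh2 had a log2 fold change of 0.21 ± 0.072 in DKO against WT (adjusted p = 0.112), 0.26 ± 0.072 in DKO against P2KO (adjusted p = 0.0645) and -0.048 ± 0.072 in P2KO against WT. It was not called, but it passed the threshold in DKO against P2KO when edgeR was fitted on these 2 genotypes alone (adjusted p = 0.0182). Cdh2 is expressed by germ cells as well.

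Tjp1, which encodes the scaffold protein ZO-1, had normalized counts of 2409 and 2025 in WT, 2301 and 2581 in P2KO, and 2493 and 2592 in DKO. Both DKO libraries lay above both WT libraries. Tjp1 had a log2 fold change of 0.20 ± 0.073 in DKO against WT (adjusted p = 0.151) and 0.14 ± 0.073 in P2KO against WT (adjusted p = 0.604). The low second WT library weighs on these values, since Tjp1 was called in both comparisons with WT when the first WT library was left out and in neither when the second was.

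Cldn11, the main claudin of the Sertoli tight junction, had normalized counts of 1657 and 1569 in WT, 1727 and 1744 in P2KO, and 1595 and 1527 in DKO. The P2KO libraries were the highest, and the WT and DKO libraries overlapped. Cldn11 had a log2 fold change of 0.11 ± 0.068 in P2KO against WT (adjusted p = 0.717), -0.046 ± 0.068 in DKO against WT (adjusted p = 0.843) and -0.15 ± 0.068 in DKO against P2KO (adjusted p = 0.349). Per length Cldn11 exceeded Ocln, which encodes occludin, by 28.2 ± 1.1 in WT, 31.3 ± 1.4 in P2KO and 24.5 ± 2.4 in DKO, and it exceeded Cldn5 by 9.98 ± 0.29, 13.1 ± 2.4 and 10.3 ± 1.2 in the same order (mean ± SD, n = 2).

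Ocln had normalized counts of 136.3 and 122.2 in WT, 120.6 and 129.9 in P2KO, and 158.1 and 131.5 in DKO. Cldn5, a claudin of the Sertoli barrier that blood vessels express too, had 128.4 and 116.6 in WT, 114.4 and 89.42 in P2KO, and 128.4 and 103.9 in DKO. Gja1, which encodes connexin 43, the main gap junction protein of the Sertoli cell, had 1084 and 899.8 in WT, 1041 and 1262 in P2KO, and 1026 and 1063 in DKO. Gja1 had the smallest p of the Sertoli genes in P2KO against WT, but its libraries overlapped.

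The log2 fold change of Gja1 was 0.22 ± 0.088 in P2KO against WT (adjusted p = 0.461), 0.079 ± 0.089 in DKO against WT (adjusted p = 0.774) and -0.14 ± 0.087 in DKO against P2KO (adjusted p = 0.567). It passed the threshold in P2KO against WT without the first WT library, as did Aard and Tjp1. Nectin2, an adhesion molecule that Sertoli cells use at junctions with spermatids, had normalized counts of 1887 and 1998 in WT, 1974 and 1954 in P2KO and 2059 and 1925 in DKO, and 135 of its exon bases overlap Gm20512 on the other strand. F11r, which encodes the junctional adhesion molecule JAM-A, had 528.3 and 544.3 in WT, 498.5 and 606.8 in P2KO and 561.3 and 544.9 in DKO. No adjusted p of either passed the threshold.

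A second list, of which 68 genes are reported, holds the partners of these Sertoli genes, which are the receptors and targets of the Sertoli ligands, the inputs of follicle-stimulating hormone and androgen, the other proteins of the junctions and further Sertoli markers. Of these 68, 64 were tested. None of them was called in P2KO against WT (beside 0.198% higher and 0.14% lower of all tested genes), 3 in DKO against WT (1 higher and 2 lower, beside 2.06% and 1.16% of all tested genes) and 2 in DKO against P2KO (both lower, beside 0.598%). At an unadjusted p under 0.05 there were 7, 8 and 8, which is 10.9%, 12.5% and 12.5% of them, beside 8.57%, 14.1% and 11.8% of all tested genes. Their median log2 fold change was 0.068, 0.013 and -0.036, against 0.0035, -0.0048 and -0.0028 over all tested genes.

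None of the 12 other tight junction genes was called in any comparison, beside between 0.14% and 2.06% of all tested genes in each direction. Among the receptors and targets of Sertoli ligands, Ptch1 and Gli1 answer to hedgehog signals such as that of Dhh. Ptch1, which encodes a hedgehog receptor, had normalized counts of 273.7 and 237.0 in WT, 259.9 and 313.0 in P2KO, and 295.0 and 311.7 in DKO, and was not called (adjusted p = 0.352 in DKO against WT). Gli1, which encodes a transcription factor of the pathway, had 49.57 and 46.29 in WT, 29.27 and 31.94 in P2KO, and 35.44 and 59.37 in DKO, and was not called (adjusted p = 0.523 in P2KO against WT). Both P2KO libraries were thus the lowest for Gli1.

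Of 16 further Sertoli markers, 13 were tested and 2 were called, both lower in DKO against WT and against P2KO, beside 1.16% and 0.598% of all tested genes. Rhox8, a homeobox gene of the X chromosome that adult Sertoli cells express, had normalized counts of 246.7 and 191.6 in WT, 224.4 and 239.5 in P2KO, and 112.1 and 121.9 in DKO. Every DKO value was below every other value, with a log2 fold change of -0.90 ± 0.15 against WT (adjusted p = 0.000191) and -0.99 ± 0.15 against P2KO (adjusted p = 7.41e-05), or 0.537 and 0.505 of the level. Ptgds, which encodes a prostaglandin D synthase that germ and Leydig cells make too, had 3837 and 3723 in WT, 4226 and 4372 in P2KO, and 3097 and 3269 in DKO.

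The log2 fold change of Ptgds was -0.25 ± 0.061 in DKO against WT (adjusted p = 0.0130) and -0.43 ± 0.061 in DKO against P2KO (adjusted p = 1.48e-05). The 3 genotypes did not overlap, and Ptgds also had the smallest p of the partner genes in P2KO against WT, where its log2 fold change was 0.19 ± 0.060 (adjusted p = 0.274). In DKO against WT the call was lost without the first DKO library (log2 fold change -0.21, adjusted p = 0.220) or the second (-0.29, adjusted p = 0.0649) and with the gene-length offset (log2 fold change -0.19, adjusted p = 0.0807). The call in DKO against P2KO held without any 1 library. The next in P2KO against WT was Tsx, an X-linked gene of Sertoli and germ cells, with 246.7 and 258.3 in WT, 311.3 and 325.8 in P2KO and 284.5 and 224.8 in DKO, and a log2 fold change of 0.33 ± 0.12 (adjusted p = 0.389). In DKO against P2KO the log2 fold change of Tsx was -0.32 ± 0.12 (adjusted p = 0.249).

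Of the 17 other genes of adherens and gap junctions and the ectoplasmic specialization, 16 were tested and 1 was called, higher in DKO against WT, beside 2.06% of all tested genes. Myo7a, an actin motor of the ectoplasmic specialization, had normalized counts of 1838 and 1613 in WT, 1803 and 2126 in P2KO, and 2057 and 2109 in DKO. Myo7a had a log2 fold change of 0.27 ± 0.075 in DKO against WT (adjusted p = 0.0326) and 0.19 ± 0.075 in P2KO against WT (adjusted p = 0.457). The call was lost without the second WT library (log2 fold change 0.18, adjusted p = 0.376), without the first DKO library (0.29, adjusted p = 0.170) and without the second DKO library (0.25, adjusted p = 0.294). It was also lost, at a log2 fold change of 0.27, in DESeq2 on all 6 libraries (adjusted p = 0.0904) or on 2 genotypes (adjusted p = 0.123) and with the replicate block (adjusted p = 0.0721). With the gene-length offset the log2 fold change was 0.20, and the call was lost without the block (adjusted p = 0.122) and with it (adjusted p = 0.146).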

How the data were processed

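Testis RNA of 6 mice was sequenced as poly(A)-selected directional libraries. The authors trimmed reads with Trim Galore, used STAR to align them to GRCm38, and deposited unnormalized whole-number counts per Ensembl gene. Which of STAR's strand columns was deposited, and the tool versions, are not given in the sources used here. Positions and lengths came from GENCODE mouse release M21, where all 55536 identifiers were found. The members and lists were chosen with earlier results of these data known.

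The analysis ran in edgeR 4.0.16 under R 4.3.3. Genes passing filterByExpr with a minimum count of 10 were scaled by TMM and fitted over all 6 libraries with a term for genotype (glmQLFit, glmQLFTest). Adjusted p-values follow Benjamini and Hochberg across the 20744 tested genes. SE is the log2 fold change divided by the root of F. The fit was also run on simulated data. The planted changes there were larger than those of the called Sertoli and partner genes, so that run does not test changes of the reported size. An exact permutation test of 2 libraries against 2 cannot give a two-sided p below 0.333, so none is reported.

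Every Sertoli gene is named with its level. Fold changes are given for called genes, for the 5 smallest p-values per comparison, and always for Sox9, Fshr, Inha, Inhbb, Amh, Cldn11, Gja1 and Espn. Of the partner list, called genes and those with the 3 smallest p-values per comparison are named. Some genes of that list are not reported here, and its counts leave them out. Shbg, Nr5a1, Ptch1 and Gli1 were given values after these had been seen. Alternatives were RLE and upper-quartile scaling, no filter, a filter on a mean of 50 counts, DESeq2 1.42.0, edgeR on 2 genotypes, a replicate block, a gene-length offset, chromosome 4 left out, a prior count of 2 and each library left out.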

Additional observations from a re-analysis of the deposited data

Results flagged for a closer look

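In DKO against P2KO, the test of the difference between the knockouts (edgeR), 3 genes were called, all lower. They came from 33 tested Sertoli genes and 64 tested partner genes, beside 0.607% of all tested genes called higher and 0.598% called lower. Their log2 fold changes were -0.36 for Aard, -0.99 for Rhox8 and -0.43 for Ptgds. In each, both DKO libraries lay below both P2KO libraries, as they did for 21.6% of all tested genes. The call of Aard was lost without the second P2KO library or without either DKO library. Groups of 2 libraries are too small for a test of outlying samples.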

How the results depend on the processing

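The direction of every called gene was kept under every alternative that gave it a value. Of the counts of called genes, 84 of 102 stayed within 1.5 times the main count. In DKO against WT, 1 Sertoli gene (Aard, lower) was called under upper-quartile scaling, without a filter and with a filter on a mean of 50 counts. Over all genes these settings called 367 higher and 322 lower of 20744, 481 and 304 of 35523, and 399 and 266 of 15085. In DKO against P2KO, 2 (Aard and Cdh2) were called by edgeR on these 2 genotypes, where calls over all genes rose from 126 higher and 124 lower to 321 and 258. With the gene-length offset, 1 partner gene (Rhox8) was called in DKO against WT, with and without the replicate block. Calls over all genes there went from 428 higher and 240 lower to 291 and 241 without the block and 257 and 219 with it. DESeq2 on 2 genotypes called 1 partner gene in DKO against P2KO (Ptgds), since Rhox8 received no adjusted p there. Over all genes it called 162 higher and 82 lower of 6992. The cause of the other changes was not tested. DESeq2 on all 6 libraries called 0, 0 and 1 Sertoli genes. Over all genes it called 22 higher and 19 lower in P2KO against WT, 264 and 140 in DKO against WT, and 90 and 72 in DKO against P2KO.

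With each library left out in turn, called Sertoli genes ran from 0 to 3 in P2KO against WT (3 without WT replicate 1, where calls over all genes rose from 41 higher and 29 lower to 221 and 90), from 0 to 1 in DKO against WT and from 0 to 3 in DKO against P2KO (0 without P2KO replicate 2, DKO replicate 1 or DKO replicate 2, and 3 without WT replicate 2, where calls over all genes were 348 and 274). Called partner genes ran from 0 to 2, from 1 (without either DKO replicate) to 4 (without WT replicate 1) and from 2 to 3, and the 2 in P2KO against WT (Myo7a and Plec) were called without WT replicate 1. Calls over all genes in DKO against WT, 428 higher and 240 lower, were 129 and 121 without DKO replicate 2, 230 and 110 without DKO replicate 1, 217 and 239 without WT replicate 2 and 762 and 303 without WT replicate 1. The median log2 fold change of the Sertoli genes in DKO against P2KO ran from -0.14 to 0.0079.

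No value whose sign differed from the main one was called. By log2 fold change, Inha in P2KO against WT was -0.0053 under upper-quartile scaling. With the gene-length offset, DKO against WT gave 0.0084 for Cldn11, -0.015 for Gja1 and 0.036 for Inha, and DKO against P2KO gave 0.0049 for Inha. With that offset and the replicate block they were 0.0079, -0.015, 0.035 and 0.0040. With libraries left out, P2KO against WT ran from -0.033 to 0.28 for Aard, -0.049 to 0.061 for Inha, -0.092 to 0.27 for Rhox8, -0.20 to 0.014 for Espn and -0.14 to 0.056 for Inhbb. DKO against WT ran from -0.12 to 0.034 for Espn, -0.094 to 0.026 for Inha, -0.12 to 0.28 for Amh and -0.054 to 0.21 for Gja1. DKO against P2KO ran from -0.056 to 0.16 for Espn, -0.030 to 0.22 for Myo7a, -0.38 to 0.035 for Fshr, -0.27 to 0.012 for Gja1, -0.12 to 0.079 for Inhbb and -0.10 to 0.020 for Inha.

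Over all tested genes, same-numbered libraries did not deviate together (correlations of -0.057, 0.057 and -0.050). This cannot exclude a pairing whose effect is small or limited to some genes. With the replicate block, 0, 0 and 1 Sertoli genes and 0, 2 and 2 partner genes were called, and Aard in DKO against P2KO was at -0.36 (adjusted p = 0.0115). Of all 20744 tested genes, 24 higher and 21 lower, 348 and 207, and 88 and 101 were called in the same order. With 2 mice per genotype, the low counts of Fshr, Amh and Gdnf leave intervals too wide to show changes under 1.5-fold.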
